A study of Homo sapiens with 6 samples.

Results

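The 10 genes described here encode the enzymes that carry carbon from citrate or acetate into long and unsaturated fatty acids: ACLY, ACSS2, ACACA, ACACB, FASN, SCD, FADS1, FADS2, ELOVL5 and ELOVL6. They were taken by gene symbol, on chromosomes, from a table of 63299 genes, and all 10 were among the 21101 genes with enough reads to be tested. A further row named ACACA, on a scaffold, held 0 reads in the 6 libraries and was left out. The libraries were RNA sequencing libraries of LNCaP cells, an androgen-responsive human prostate cancer line. In 3 of them, labelled as given doxycycline, MEP50 was knocked down with a short hairpin RNA. The 3 control libraries were labelled as without doxycycline and without knockdown. MEP50, whose gene is WDR77, is the partner protein of the arginine methyltransferase PRMT5. The comparison asked which genes change when MEP50 is lowered. By the labels, no library analysed here received the drug without knockdown, so the drug and the knockdown cannot be told apart. The hairpin's sequence, the dose and time of doxycycline and the number of cell clones are not given in the sources used here.

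Cytosolic fatty acid synthesis starts from acetyl-CoA, which ACLY makes from citrate exported by mitochondria and ACSS2 makes from acetate. Acetyl-CoA carboxylase turns it into malonyl-CoA, and FASN joins these units into palmitate. SCD then introduces the double bond of oleate and palmitoleate, ELOVL6 lengthens saturated and monounsaturated chains, and FADS1, FADS2 and ELOVL5 convert dietary essential fatty acids into long polyunsaturated ones. The pathway is known for its high activity in prostate cancer and for its control by SREBP transcription factors and by androgen.

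The libraries held 18568002 to 36001219 reads on genes in the knockdown group and 27509105 to 36234784 in the control group. WDR77 was at 15.0, 14.0 and 12.7 CPM, the field's usual read count scaled to library size, in knockdown replicates 1 to 3, against 49.3, 47.2 and 36.7 CPM in the control replicates, a log2 fold change of -1.67 (adjusted p 0.00131, edgeR). PRMT5 was at 145 ± 3.73 CPM in knockdown and 210 ± 16.0 CPM in control cells (SD, n = 3 each), a log2 fold change of -0.53 (adjusted p 0.0268, edgeR) that missed the threshold once any library but control replicate 2 was left out (up to 0.119). All 10 markers of the luminal prostate line, among them KLK3, averaged at least 211 CPM in both groups. Summed over 17 markers of other cell types, knockdown libraries held 30.5 to 46.9 RPM (reads scaled to the library total, without TMM) and control libraries 27.6 to 52.4. Of these 17 markers 11 to 13 were under 1 RPM in each library, 4 to 8 of them at 0, and the rest were at 1 RPM or more. KRT5 and ADIPOQ were at 0 in every library. Summed over 17 proliferation markers, knockdown libraries held 966 to 1922 RPM and control libraries 1850 to 3456. Of all tested genes 4.88% were called lower and 2.72% higher, and 14.9% and 11.2% in the block fit, which takes the replicate number as a block. Of the 17 proliferation markers 6 were lower and 0 higher (median log2 fold change -0.96), among them RRM2 (-2.10), MKI67 (-1.57) and MCM4 (-1.35). That count was 0 with knockdown 2 omitted, where RRM2 (adjusted p 0.0545, edgeR) and MKI67 (0.0533) missed the threshold, 2 with knockdown 3, control 1 or control 2 omitted, 10 with knockdown 1 omitted and 17 in the block fit. MCM4 missed it with any of knockdown 2 and 3 and control 1 and 2 omitted (up to 0.106). Of the 10 luminal markers 4 were lower and 0 higher, among them KLK3 (-1.48), KLK2 (-1.01) and KRT18 (-0.59). This count was 1 with knockdown 2, knockdown 3 or control 3 omitted, 2 with knockdown 1 or control 1 omitted, and 6 in the block fit. KLK3 was called whichever library was omitted, KLK2 missed the threshold in 4 of these 6 fits (up to 0.0827) and KRT18 in 5 (up to 0.0723). Of 8 tested markers of other cell types 1 was higher, the lysozyme gene LYZ at 0.904 CPM in knockdown and 0.131 CPM in control cells, and 1 lower, the basal keratin gene KRT14 at 0.0763 CPM in knockdown and 0.852 CPM in control cells. KRT14 missed the threshold with knockdown 1 or 2 or control 1 or 3 omitted (up to 0.118). SYP, a neuroendocrine marker, had a log2 fold change of -0.76 (adjusted p 0.0731, edgeR), and the block fit called it lower (0.0224). Whether these differences had a part in those of the enzymes was not tested. In bulk RNA, fewer cells with a transcript and less of it per cell cannot be told apart.

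Transcripts of 5 of the 10 enzymes fell in knockdown cells and none rose. ACLY fell 4.93-fold, and SCD, FADS1, FADS2 and ACSS2 fell between 2.14-fold and 2.51-fold. The fall of ACLY was known when the 10 were chosen. The counts and the median given here include it and are descriptions. ACACA, ACACB, FASN, ELOVL5 and ELOVL6 did not pass the test. Calls rest on an adjusted p under 0.05 in edgeR's quasi-likelihood test over all tested genes. Of all tested genes, 4.88% were called lower and 2.72% higher. With the replicate number as a block, ELOVL6 was called as well, making 6 lower and 0 higher, where 14.9% of all tested genes were lower and 11.2% higher. For 8 of the 10 enzymes every knockdown library lay below every control library, as for 17% of all tested genes. For 0 of the 10 did every knockdown library lie above, as for 13.4% of all tested genes. The median log2 fold change of the 10 was -0.89, beside 0.00 over all tested genes. Together the 10 genes took 0.276%, 0.334% and 0.337% of the reads in knockdown replicates 1 to 3, against 0.473%, 0.655% and 0.536% in control replicates 1 to 3.

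**Figure D1:**
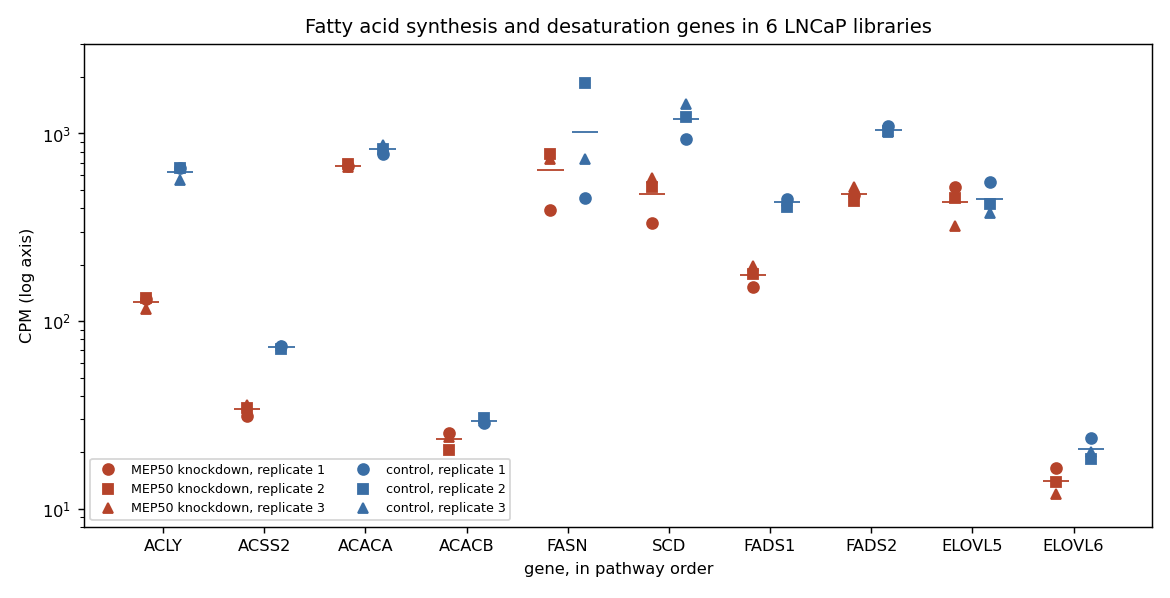
Level of each enzyme gene in every library, as CPM on a log axis, with knockdown libraries in red and control libraries in blue; symbols mark the replicate number and short lines the group means. ACLY, ACSS2, SCD, FADS1 and FADS2 separate clearly by group, whereas FASN and ELOVL5 overlap, with control replicate 2 far above the other FASN values at 1869 CPM.

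Transcripts for both routes to cytosolic acetyl-CoA fell, with the larger fold change for ACLY. ACLY (ENSG00000131473.16, chromosome 17, 41866908 to 41930542, minus strand, hg38), ATP citrate lyase, was at 131, 132 and 116 CPM in knockdown replicates 1 to 3, against 651, 654 and 561 CPM in control replicates 1 to 3. The groups were far apart, and within each group the values lay close together. ACLY averaged 126 ± 9.09 CPM in knockdown and 622 ± 52.4 CPM in control cells (SD, n = 3 each), a log2 fold change of -2.30 (SE 0.13, adjusted p 0.000219, edgeR). Within same-numbered replicates its log2 differences were -2.32, -2.31 and -2.28. Of the exon bases of ACLY 156, or 2.99%, are also annotated to another gene on the opposite strand.

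ACSS2 (ENSG00000131069.19, chromosome 20, 34872146 to 34927962, plus strand), acetyl-CoA synthetase, was at 31.3, 34.5 and 35.7 CPM in knockdown replicates, against 73.3, 70.7 and 73.8 CPM in control replicates. Again no knockdown library reached a control library. It averaged 33.9 ± 2.27 CPM in knockdown and 72.6 ± 1.65 CPM in control cells (SD, n = 3 each), a log2 fold change of -1.10 (SE 0.12, adjusted p 0.00185, edgeR). ACLY and ACSS2 were called whichever single library was left out, with log2 fold changes from -2.38 to -2.23 for ACLY and from -1.14 to -1.05 for ACSS2. Reads of ACLY outnumbered those of ACSS2 by 4.17, 3.82 and 3.24 times in knockdown replicates, against 8.88, 9.24 and 7.61 times in control replicates. The log2 ratio of ACLY to ACSS2 differed by -1.20 between groups that did not overlap. The exact two-sided permutation p was 0.1, the smallest that 3 against 3 libraries allow.

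The 3' UTR of ACLY holds 2 copies of a 7-base word that went with lower values across the transcriptome, so the sites are shown here. Among 14573 words of 7 bases, CTCTGTA had the lowest standardised difference in mean log2 fold change between genes with and without it in the longest annotated 3' UTR, and ACTCTGT, which shares 6 of its bases, was the next. Both words were thus picked on these same libraries. CTCTGTA occurs in 15.2% and ACTCTGT in 18.9% of the 13349 coding genes searched. Of the 10 enzymes 5 hold at least 1 of these words, as do 27.3% of all genes searched. The capitals mark the word in transcript sequence of GENCODE 29 on GRCh38, in the direction of the gene. ACLY has CTCTGTA at chr17:41867070-41867099 and chr17:41866953-41866982, ACSS2 has ACTCTGT at chr20:34927882-34927911, FADS1 has ACTCTGT at chr11:61801006-61801035, and SCD has CTCTGTA at chr10:100364193-100364222.
ACLY site 1: gtgtcttatgttCTCTGTAtttatgcagct
ACLY site 2: cctcagtctcttCTCTGTAttatcatagtc
ACSS2: ttctcagatgaaACTCTGTtttcttgcccc
FADS1: gctaggtatcttACTCTGTccactcttgtt
SCD: cttgggtgtattCTCTGTAagtgtagctca

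Both ACLY copies lie near the end of a 3' UTR of 902 bases. ELOVL6 also holds 2 copies of CTCTGTA, in a 3' UTR of 5492 bases, and was not called without the block. FADS2, which fell, holds neither word, nor do ACACA, ACACB, FASN and ELOVL5. Among all genes searched, 20.7% of the 334 with 2 or more copies of CTCTGTA were called lower, and their median log2 fold change was -0.19. The 1688 genes with 1 copy had a median of -0.12 with 13.8% called lower, and the 11327 without it had a median of -0.03 with 5.24% called lower. CTCTGTA was picked for low values in these same libraries, so lower values in genes that hold it follow in part from that choice. The 3' UTR length moved with the number of copies: its median was 4781 bases with 2 or more, 2680 bases with 1 and 1130 bases with 0 copies. WDR77, the target of the hairpin, has neither word in its longest 3' UTR. The rest of its transcript was not searched, so this says nothing about where the hairpin matches WDR77. A short hairpin RNA can also lower transcripts whose 3' UTR matches its seed. The hairpin's sequence is not given in the sources used here, so whether these words match its seed was not tested. For every enzyme that fell, FADS2 included, an effect of the hairpin on its own transcript and an effect of lower MEP50 cannot be told apart in these libraries. Whether the 3' UTR length had a part was not tested either.

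**Figure D2:**
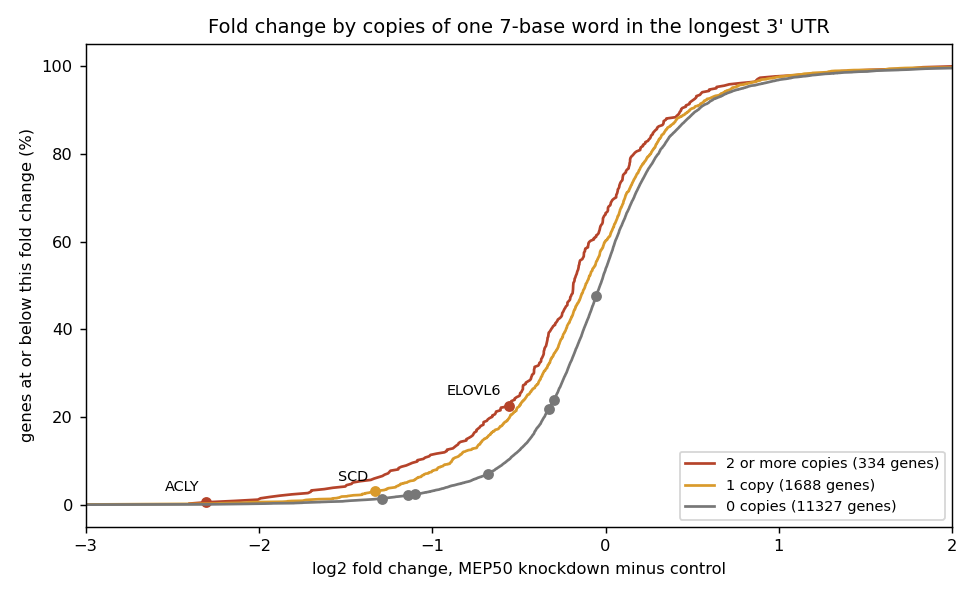
Cumulative share of coding genes at or below each log2 fold change, knockdown minus control, for genes with 2 or more, 1 or 0 copies of the word CTCTGTA in the longest 3' UTR; dots mark the 10 enzyme genes on their own curve. The curves of genes with copies lie to the left, and ACLY sits at -2.30, near the lower end of its group of 334 genes. The word was picked for low values in these same libraries.

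None of the carboxylase and synthase genes passed the test. ACACA (ENSG00000278540.4, chromosome 17, minus strand), the cytosolic acetyl-CoA carboxylase that supplies malonyl-CoA for synthesis, was at 670, 685 and 661 CPM in knockdown replicates, against 781, 824 and 871 CPM in control replicates. Its groups did not overlap, but the log2 fold change of -0.30 (SE 0.12) did not pass the test (adjusted p 0.161, edgeR). ACACB (ENSG00000076555.15, chromosome 12, plus strand), the mitochondrial isoform whose malonyl-CoA restrains fatty acid import into mitochondria, was at 25.3, 20.7 and 24.1 CPM in knockdown replicates, against 28.5, 30.3 and 29.2 CPM in control replicates. It also separated by group without passing the test (-0.33, SE 0.14, adjusted p 0.187, edgeR). Neither carboxylase was called in any alternative fit, with adjusted p from 0.0662 to 0.36 for ACACA and from 0.0609 to 0.463 for ACACB. ACACA reads exceeded those of ACACB by 26.4, 33.2 and 27.4 times in knockdown replicates, against 27.4, 27.2 and 29.9 times in control replicates, and these ranges overlapped (log2 difference 0.04, exact permutation p 0.9).

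FASN (ENSG00000169710.8, chromosome 17, 82078333 to 82098332, minus strand), fatty acid synthase, varied more between replicates than any other enzyme of the 10. It was at 393, 781 and 731 CPM in knockdown replicates 1 to 3, against 452, 1869 and 727 CPM in control replicates 1 to 3. Replicate 1 was low in both groups, and control replicate 2 stood alone at the top. Means were 635 ± 211 CPM in knockdown and 1016 ± 751 CPM in control cells (SD, n = 3 each), with a log2 fold change of -0.68 (SE 0.47, adjusted p 0.411, edgeR). Within same-numbered replicates the log2 differences were -0.20, -1.26 and 0.01. Without control replicate 2 the log2 fold change was 0.09 (adjusted p 0.866). FASN was called in the fit without a filter on low counts (adjusted p 0.00265) and in no other alternative, including the block (0.0882). No direction is therefore given for FASN.

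SREBF1 and SREBF2, which encode the SREBP transcription factors, also had their highest value in control replicate 2. SREBF1 was at 197, 260 and 248 CPM in knockdown replicates, against 222, 453 and 288 CPM in control replicates. Its log2 fold change of -0.45 missed the threshold (adjusted p 0.289, edgeR). The block fit called it lower (adjusted p 0.0372), and without control replicate 2 it was -0.13. SREBF2 was at 115, 173 and 214 CPM in knockdown replicates, against 138, 258 and 197 CPM in control replicates, and was not called in any fit (log2 fold change -0.24). FASN, SREBF1 and SREBF2 were each lowest in replicate 1 of both groups.

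**Figure D3:**
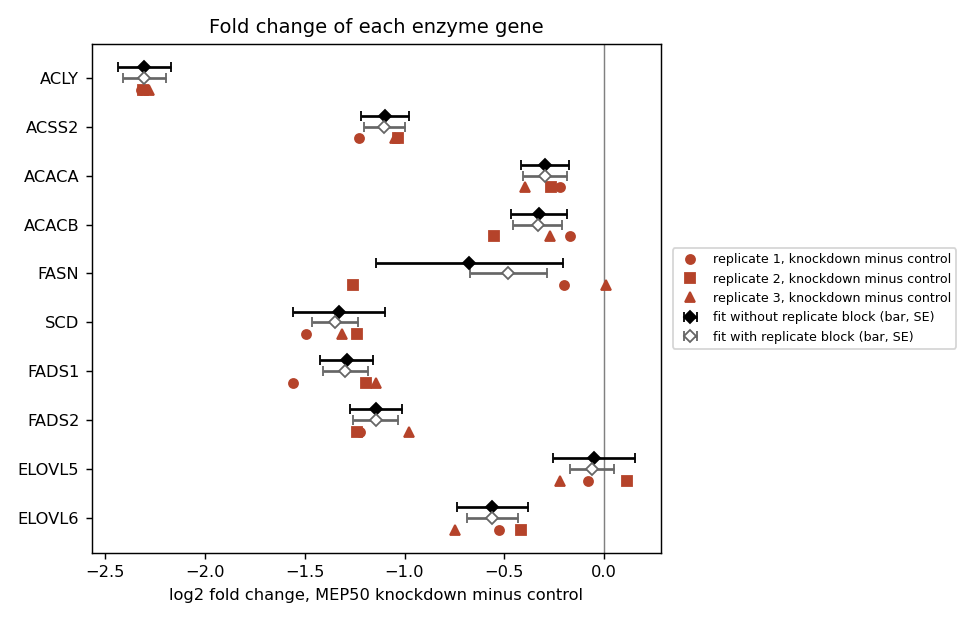
Log2 fold change of each enzyme gene, knockdown minus control, in the fit without (filled) and with (open) the replicate number as a block, with bars of 1 SE, and the difference within each same-numbered replicate in red. The differences of ACLY lie on top of each other near -2.30, those of FASN spread from -1.26 to 0.01, and the fit with the block has the shorter bar for every gene.

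All 3 desaturase genes fell by more than 2-fold. SCD (ENSG00000099194.5, chromosome 10, 100347124 to 100364834, plus strand), stearoyl-CoA desaturase, was at 333, 517 and 576 CPM in knockdown replicates, against 937, 1219 and 1429 CPM in control replicates. The highest knockdown library remained well below the lowest control library, and replicate 1 was the lowest in both groups. SCD averaged 475 ± 127 CPM in knockdown and 1195 ± 247 CPM in control cells (SD, n = 3 each), a log2 fold change of -1.33 (SE 0.23, adjusted p 0.0118, edgeR). The call was lost when knockdown replicate 2 was left out (adjusted p 0.0502), where the log2 fold change was -1.39. Its sister gene SCD5, in the list of other elongation and desaturation enzymes, was at 18.3 ± 4.43 CPM in knockdown and 12.5 ± 3.4 CPM in control cells (SD, n = 3 each). Its log2 fold change of 0.55 missed the threshold in edgeR (adjusted p 0.211), and the block fit called it higher (adjusted p 0.0119).

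FADS1 and FADS2 encode the front-end desaturases of polyunsaturated fatty acid synthesis, FADS2 acting at the first desaturation step and FADS1 at a later one. FADS1 (ENSG00000149485.17, chromosome 11, 61799625 to 61829318, minus strand) was at 153, 179 and 197 CPM in knockdown replicates, against 450, 408 and 434 CPM in control replicates. FADS1 fell by 1.29 on the log2 scale (SE 0.13, adjusted p 0.0017, edgeR). FADS2 (ENSG00000134824.13, chromosome 11, 61792980 to 61867354, plus strand) was at 472, 435 and 520 CPM in knockdown replicates, against 1100 CPM in control replicate 1, 1025 CPM in control replicate 2 and 1024 CPM in control replicate 3. FADS2 fell by 1.14 on the log2 scale (SE 0.13, adjusted p 0.0021, edgeR). Both were separated by group and were called whichever single library was left out, with log2 fold changes from -1.38 to -1.21 for FADS1 and from -1.21 to -1.07 for FADS2. The genes lie on opposite strands, and 490 exon bases are annotated in both, 4.79% of FADS1 and 4.44% of FADS2. The strand setting of the counting is not given in the sources used here, so reads in those bases could belong to either gene. FADS3, the third gene of the family, had a log2 fold change of 0.20 and was not called (adjusted p 0.53).

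Promoter sequences are shown for the 5 enzyme genes that fell. RefSeq promoters on GRCh38.p14, from 250 bases before to 50 after a start site, were matched for 9 of the 10 enzymes, in 15 entries. Words were searched on both strands. The CCAAT box (CCAAT) was found in 9 of the 15 entries, and in 34.6% of all 35116 promoters. The GC box (GGGCGG) was found in 11 of the 15, and in 45% of all promoters, and the E-box (CACGTG) in 1, of ELOVL5, and in 7.26% of all. Entries of 1 gene can overlap, as both of ACLY do. The word TCACNCCAC, which resembles a sterol response element, was in 0 of the 15 entries and in 1.13% of all promoters. With so rare a word, 0 of 15 does not show that these promoters lack such an element. Other forms of the element were not searched for, and FASN had no entry. The promoter windows of ACLY (chr17:41918902-41919201, minus strand) and SCD (chr10:100346983-100347282, plus strand) each hold 2 CCAAT boxes. That of ACSS2 (chr20:34876362-34876661, plus strand) holds 3 GC boxes and no CCAAT box. That of FADS1 (chr11:61816954-61817253, minus strand) holds 2 GC boxes, and that of FADS2 (chr11:61816154-61816453, plus strand) holds 1 of each. The start sites of this FADS2 entry (61816404, plus strand) and of FADS1 (61817003, minus strand) are 599 bases apart. They face each other, so transcripts from these sites would overlap at their starts. Which start sites these cells use was not tested, so the windows shown need not be the main promoters. ACLY, ACSS2, ACACA, ACACB and FADS2 have 2 or more entries, and the second is shown for ACLY, ACSS2 and FADS2. The first ACSS2 entry differs and holds 1 CCAAT box and 1 GC box, and the first FADS2 entry holds neither word. Capitals mark CCAAT and GC boxes on either strand, from 5' to 3' in the direction of the gene.
ACLY: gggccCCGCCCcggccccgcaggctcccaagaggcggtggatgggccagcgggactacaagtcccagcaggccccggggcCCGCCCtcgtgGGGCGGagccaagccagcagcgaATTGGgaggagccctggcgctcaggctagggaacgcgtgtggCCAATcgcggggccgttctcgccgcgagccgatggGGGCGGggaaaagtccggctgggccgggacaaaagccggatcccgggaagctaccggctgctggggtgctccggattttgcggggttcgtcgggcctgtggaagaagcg
ACSS2: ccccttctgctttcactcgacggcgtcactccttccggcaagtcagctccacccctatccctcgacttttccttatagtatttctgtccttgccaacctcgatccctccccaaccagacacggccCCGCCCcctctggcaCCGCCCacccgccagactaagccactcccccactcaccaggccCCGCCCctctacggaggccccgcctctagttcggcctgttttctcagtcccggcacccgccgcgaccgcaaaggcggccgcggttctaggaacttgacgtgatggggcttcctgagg
SCD: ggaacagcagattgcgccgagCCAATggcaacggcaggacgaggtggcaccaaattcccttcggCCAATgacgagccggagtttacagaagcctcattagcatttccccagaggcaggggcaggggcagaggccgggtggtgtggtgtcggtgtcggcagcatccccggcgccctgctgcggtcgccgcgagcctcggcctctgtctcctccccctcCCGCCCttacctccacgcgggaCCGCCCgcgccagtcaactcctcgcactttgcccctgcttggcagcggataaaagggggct
FADS1: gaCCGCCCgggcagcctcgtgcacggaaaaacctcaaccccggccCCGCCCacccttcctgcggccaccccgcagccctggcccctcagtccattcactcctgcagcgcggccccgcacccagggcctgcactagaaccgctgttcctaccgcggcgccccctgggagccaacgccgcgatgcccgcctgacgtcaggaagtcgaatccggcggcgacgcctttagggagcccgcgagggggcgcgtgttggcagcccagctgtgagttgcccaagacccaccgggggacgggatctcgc
FADS2: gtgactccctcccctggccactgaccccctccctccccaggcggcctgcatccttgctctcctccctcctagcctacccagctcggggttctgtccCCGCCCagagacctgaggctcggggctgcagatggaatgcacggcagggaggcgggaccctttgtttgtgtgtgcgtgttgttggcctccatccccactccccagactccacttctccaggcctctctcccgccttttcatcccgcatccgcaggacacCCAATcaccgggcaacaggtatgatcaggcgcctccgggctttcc

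The elongase genes did not pass the test without the block. ELOVL6 (ENSG00000170522.9, chromosome 4, minus strand), which lengthens the palmitate that FASN makes, was at 16.5, 13.8 and 11.9 CPM in knockdown replicates, against 23.8, 18.4 and 20.0 CPM in control replicates. Its groups did not overlap, and the difference of -0.56 on the log2 scale (SE 0.18) missed the threshold (adjusted p 0.0925, edgeR). The block fit called it lower (log2 fold change -0.56, SE 0.13, adjusted p 0.00646), with differences of -0.53, -0.42 and -0.74 within replicates 1 to 3. ELOVL5 (ENSG00000012660.13, chromosome 6, minus strand), which lengthens polyunsaturated chains, was at 519, 453 and 322 CPM in knockdown replicates, against 549, 418 and 375 CPM in control replicates. The groups overlapped across most of their range, and replicate 1 was the highest in both. Its log2 fold change of -0.05 (SE 0.21) was not called (adjusted p 0.904, edgeR), and leaving out single libraries gave values from -0.22 to 0.16.

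Divided by exon length, ELOVL5 and SCD had the highest levels of the 10 in knockdown cells, and SCD had the highest in control cells. Levels per kilobase used the summed exon length in the deposited table, which includes rare isoforms. ELOVL5 was at 113 ± 26.4 CPM per kilobase in knockdown and 117 ± 23.8 in control cells, and SCD was at 88.6 ± 23.6 in knockdown and 223 ± 46 in control cells (SD, n = 3 each). FASN followed with 67.8 ± 22.5 CPM per kilobase in knockdown and 108 ± 80.2 in control cells. ACLY was at 24.2 ± 1.74 in knockdown, the sixth highest level there, and at 119 ± 10 in control cells, the second highest there. In control cells ACLY, ELOVL5 and FASN differed by less than their spread, as did ELOVL5 and SCD, and SCD and FASN, in knockdown cells. FADS2 was at 43.1 ± 3.86 CPM per kilobase in knockdown and 95.2 ± 3.93 in control cells, and ACACA was at 51.6 ± 0.934 in knockdown and 63.4 ± 3.47 in control cells. FADS1 (17.2 ± 2.17 in knockdown, 42.1 ± 2.07 in control) and ACSS2 (6.29 ± 0.422 in knockdown, 13.5 ± 0.306 in control) were lower. ELOVL6 and ACACB were at most 2.84 CPM per kilobase on average in either group.

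In the list made for citrate and NADPH supply, which also holds the mitochondrial enzyme ME2, 4 genes were lower. Of 14 tested 4 were lower and 0 higher, with a median log2 fold change of -0.36. Over all tested genes 4.88% were lower (14.9% in the block fit) and 2.72% higher (11.2% in the block fit). SLC25A1, the mitochondrial citrate carrier, was at 51.4 ± 10.6 CPM in knockdown and 114 ± 17.1 CPM in control cells (SD, n = 3 each), a log2 fold change of -1.15 (SE 0.18, adjusted p 0.00766, edgeR). PGD, an NADPH-producing enzyme of the pentose phosphate pathway, fell by 1.08 on the log2 scale (adjusted p 0.00901, edgeR). ME2, a mitochondrial malic enzyme named after its value was seen, fell by 0.72 (adjusted p 0.0192, edgeR), with adjusted p up to 0.092 when single libraries were left out. SLC25A1 and PGD were called whichever library was left out. Omitting knockdown 1 or 2 or control 3 left 2 calls of the 4, and the block fit gave 7 lower and 1 higher.

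Among the other elongation and desaturation enzymes, 2 of 10 tested were lower and 0 higher (median log2 fold change -0.02). The shares over all tested genes were 4.88% lower and 2.72% higher, and 14.9% and 11.2% in the block fit. HACD2, a dehydratase of the elongation cycle, was at 104 ± 13.4 CPM in knockdown and 217 ± 42 CPM in control cells (SD, n = 3 each), a log2 fold change of -1.06 (adjusted p 0.00878, edgeR). HACD3, a related dehydratase, fell by 0.58 (adjusted p 0.0417), which did not hold with RLE scaling (0.0548) or once any library but control replicate 2 was left out (adjusted p up to 0.164). TECR, the reductase that closes the elongation cycle, had a log2 fold change of -0.53 that missed the threshold (adjusted p 0.13, edgeR), and the block fit called it lower (0.00658). Omitting any library but control 2 left 1 call of the 2, and the block fit gave 4 lower and 1 higher. The separate mitochondrial fatty acid synthesis genes gave 0 calls of 10 in edgeR and in each of the 11 alternative fits, DESeq2 and limma-voom among them, with 0 at an unadjusted p under 0.05. Those with the smallest p there were LIPT2 (-0.36), HSD17B8 (-0.30) and MECR (0.20).

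Genes that use fatty acids were tested alongside, in the edgeR fit that called 4.88% of all tested genes lower and 2.72% higher. Of 17 tested acyl-CoA synthetases and carriers, SLC27A2 fell by 0.68 (adjusted p 0.0201, edgeR) and ACSL4, which activates polyunsaturated fatty acids, rose by 0.74 (adjusted p 0.0384, edgeR). Each call was lost when any 1 of 5 libraries was left out (adjusted p up to 0.0847 and 0.121). The exceptions were control replicate 2 for SLC27A2 and control replicate 1 for ACSL4. ACSS1, the mitochondrial acetyl-CoA synthetase, was at 0.347 CPM in knockdown and 0.809 CPM in control cells and was not called (adjusted p 0.124, edgeR). Of 21 glycerolipid synthesis genes 0 passed in edgeR, where 8 had an unadjusted p under 0.05, and 0 in limma-voom. DESeq2 found 1 higher and 1 lower, and the block fit 2 higher and 5 lower (11.2% and 14.9% of all tested genes). The 3 smallest p there belonged to DGAT2 (-0.72), LPIN3 (0.54) and AGPAT5 (-0.44), all 3 called with the block (adjusted p 0.00107, 0.00574 and 0.0132).

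Among 27 genes of fatty acid oxidation, the opposing pathway, 3 were lower and 0 higher (median log2 fold change -0.20). Across all tested genes 4.88% were lower (14.9% in the block fit) and 2.72% higher (11.2% in the block fit). ACADM, the medium-chain acyl-CoA dehydrogenase, was at 58.4 ± 2.12 CPM in knockdown and 118 ± 16.4 CPM in control cells (SD, n = 3 each), a log2 fold change of -1.02 (adjusted p 0.00415, edgeR), called whichever library was left out. ACADVL fell by 0.68 (adjusted p 0.0184) and EHHADH by 0.74 (adjusted p 0.0313), but neither held once any 1 of 4 libraries, knockdown 2 or 3 and control 1 or 3, was omitted (adjusted p up to 0.0814 for ACADVL and 0.123 for EHHADH). Omitting any of these 4 left 1 call of the 3, and the block fit gave 11 lower and 5 higher.

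**Figure D4:**
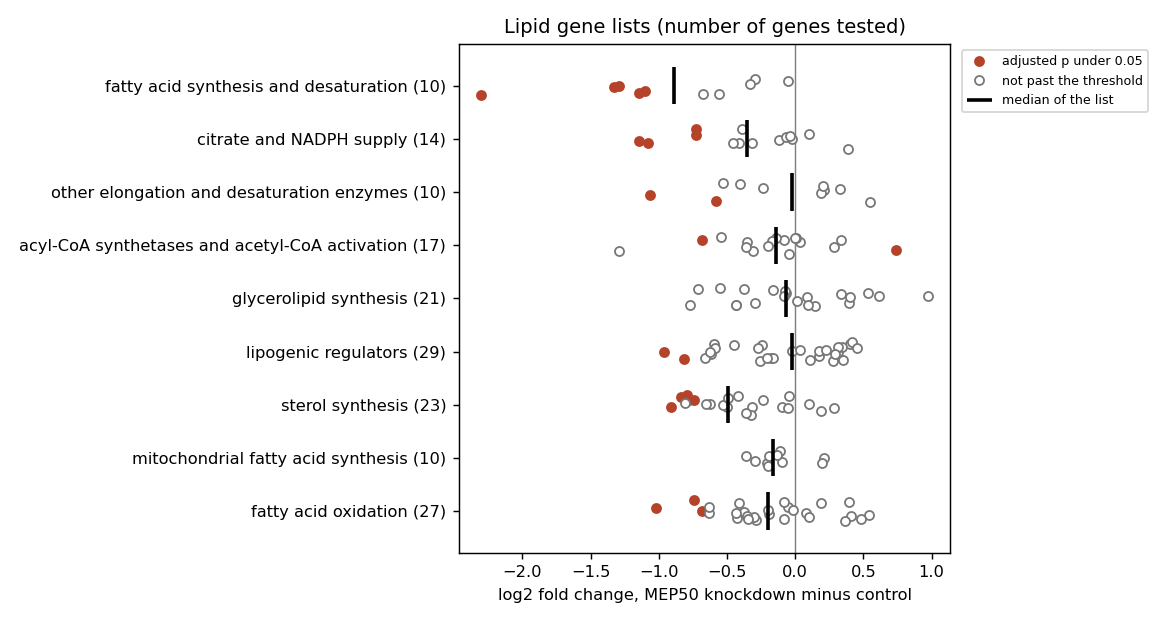
Log2 fold change, knockdown minus control, of every tested gene in 9 lipid gene lists, with genes past an adjusted p of 0.05 filled, black bars at the list medians and the number of tested genes in brackets. The median of the 10 synthesis and desaturation genes is -0.89, that of the sterol list is -0.49, and the others lie between -0.36 and -0.02.

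Some sterol synthesis genes, which share SREBP control with the fatty acid enzymes, fell too. Of 23 tested genes 6 were lower and 0 higher, with a median log2 fold change of -0.49. Over all tested genes 4.88% were lower (14.9% in the block fit) and 2.72% higher (11.2% in the block fit). DHCR7, the last reductase of cholesterol synthesis, was at 73.8 ± 3.98 CPM in knockdown and 128 ± 5.37 CPM in control cells (SD, n = 3 each), a log2 fold change of -0.79 (SE 0.11, adjusted p 0.00552, edgeR). FDPS, which makes farnesyl diphosphate, fell by 0.91 (adjusted p 0.00633, edgeR). Omitting knockdown replicate 2 left 2 calls of 6, omitting control replicate 2 gave 10, and the block fit gave 14. The difference between the sterol list and the 10 fatty acid enzymes was not tested.

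Among 29 regulators of lipid synthesis 2 were lower and 0 higher, with a median log2 fold change of -0.03. The shares over all tested genes were 4.88% lower and 2.72% higher, and 14.9% and 11.2% in the block fit. NR1H3, which encodes the oxysterol receptor LXR alpha, an activator of SREBF1 and SCD, was at 14.5 ± 0.44 CPM in knockdown and 25.4 ± 0.88 CPM in control cells (SD, n = 3 each). NR1H3 fell by 0.81 on the log2 scale (SE 0.14, adjusted p 0.0106, edgeR), which did not hold once knockdown replicate 2 was left out (adjusted p 0.0556). BRCA1, a DNA repair gene listed because its protein binds acetyl-CoA carboxylase, fell by 0.96 (adjusted p 0.045), which did not hold once knockdown 2 or 3 or control 1 or 2 was omitted (up to 0.132). PRKAG1, a subunit of the kinase AMPK that inhibits the carboxylases, had a log2 fold change of -0.59 that missed the threshold (adjusted p 0.0601, edgeR), and the block fit called it lower (0.00148). Omitting 1 library left 0 calls (knockdown 2), 1 call (knockdown 3 or control 1) or 3 calls (knockdown 1 or control 2). DESeq2 found 5 lower, and the block fit 8 lower and 3 higher.

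The transcripts whose profile over the 6 libraries was most like that of ACLY, among 10512 genes averaging at least 10 CPM, were in none of the lipid lists. By Pearson correlation of log2 CPM they were GGA2, RP11-173P15.3, WDR45B, RAB14 and NOLC1, with r from 0.997 to 0.999, given as a description since the 6 points share 2 groups. Their log2 fold changes ran from -1.58 for RP11-173P15.3 to -0.71 for NOLC1, all smaller in size than that of ACLY. Among the enzymes, ACSS2 (0.986) and FADS2 (0.982) were the most like ACLY, and FASN (0.336) and ELOVL5 (0.183) the least.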

How the data were processed

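The authors deposited whole-number read counts per gene for 6 libraries. The submitters' processing notes name bcl2fastq, STAR 2.5, featureCounts, Subread 1.6.5, edgeR 3.20.8 and the build hg38. The strand setting and annotation release are not given in the sources used here. RNA was taken up in Trizol and sequenced from TruSeq libraries, per the labels' protocols. The table held 63299 rows and 0 without a gene name.

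The counts were tested here with edgeR 4.0.16 in R 4.3.3, with TMM scaling, filterByExpr by group, a two-sided quasi-likelihood F test of knockdown against control, and Benjamini-Hochberg adjustment over 21101 genes. Log2 fold changes are knockdown minus control, and the SE is the fold change divided by the square root of F. CPM uses TMM-scaled library sizes. Alternatives were RLE scaling, no filter, DESeq2 1.42.0, limma-voom (limma 3.58.1), a replicate block, and leaving out each library. The fits and the word search were first tested on simulated data. The simulated libraries shared nothing by replicate number, so they do not show how either fit behaves when same-numbered libraries are alike.

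Biological replicates, as the series design calls them, carry the numbers 1 to 3 in each group; how they were separated is not stated. Deviations from the group means correlated at 0.554, 0.381 and 0.358 between same-numbered libraries, and from -0.39 to 0.0602 between others. Deviations of 3 libraries from their mean sum to 0, which by itself pulls the other values down when same-numbered ones are positive. The numbers were taken as pairs in the block fit. The labels state no pairing, so the main test leaves the pairs out, and its calls ignore what same-numbered libraries share. Block values are given where they change the call of a named gene.

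The members and lists were chosen with earlier results of these data known, among them the fall of ACLY. The named genes were the 10 enzymes, WDR77, PRMT5, SREBF1, SREBF2, the 3 genes with the smallest p of each other list, and the 5 with the profile most like ACLY. Some genes that this rule named are not reported here. SCD5, FADS3, ME2, KRT5 and ADIPOQ were named after their values were seen. The 3' UTR words were searched for because an earlier analysis of these data had found related words, so their rank is no independent evidence. GENCODE 29 identifiers were matched without version, and 3' UTRs came from coding transcripts. Promoters came from RefSeq.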

Additional observations from a re-analysis of the deposited data

How the results depend on the processing

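The 5 lower enzymes were 5 with RLE scaling, DESeq2 and limma-voom, 6 without the low-count filter and with the replicate block, and 4 to 5 when single libraries were omitted, and 0 were higher in each. Omitting libraries gave log2 fold changes of -0.97 to 0.095 for FASN and -0.22 to 0.16 for ELOVL5, turning positive for FASN without control 2 (0.095) and for ELOVL5 without knockdown 3 (0.12) or control 1 (0.16). The log2 ratio of ACACA to ACACB differed by -0.064 to 0.099, turning to -0.064 without knockdown 2; none of these was called. In the other lists, given as genes lower unless said otherwise, the replicate block gave 4 and 1 higher (other elongation), 7 and 1 higher (citrate and NADPH), 3 (acyl-CoA), 5 and 2 higher (glycerolipid), 8 and 3 higher (regulators), 14 (sterol), 11 and 5 higher (oxidation), 17 (proliferation) and 3 and 2 higher (other cell types). Without the filter there were 4 and 1 higher (other elongation), 1 (glycerolipid), 7 (regulators), 12 (sterol), 16 (proliferation) and 2 and 2 higher (other cell types). DESeq2 gave 1 and 1 higher (glycerolipid), 5 (regulators), 12 (proliferation) and 0 and 0 higher (other cell types), and RLE scaling 1 (other elongation). Omitting libraries gave 1 to 2 (other elongation), 2 to 4 (citrate and NADPH), 0 to 2 and 0 to 1 higher (acyl-CoA), 0 to 3 (regulators), 2 to 10 (sterol), 1 to 3 (oxidation), 0 to 10 (proliferation), 1 to 3 (luminal) and 0 to 1 and 1 to 2 higher (other cell types). The cause of these differences was not tested. Over all genes, 1029 lower and 574 higher became 329 and 168 without knockdown 2, the library with the second largest total, and 3148 and 2358 with the replicate block.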
